A study of Rattus norvegicus with 12 samples.

Results

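The tubulins and the microtubule-binding protein Map4 were followed in failing and control rat hearts. Their members were every array probe set, a group of short oligonucleotides that reports 1 transcript, annotated to exactly 1 of 8 gene symbols (Tuba1a, Tuba1b, Tuba4a, Tubb2a, Tubb2b, Tubb5, Tubb6 and Map4). The rule found 10 probe sets of 6 genes among 31042 probe sets, of which 20826 carried 1 symbol, for 14217 genes in all. Tuba1a and Tuba1b had no probe set of their own, since the only one annotated to them, 1367579_a_at, is shared by 3 alpha-tubulin genes. The study measured messenger RNA on 12 arrays, 1 per heart, in 6 failing hearts and 6 control hearts. It concerns the spontaneously hypertensive rat, inbred rats whose blood pressure climbs with age and whose hearts go on to fail. The labels call the hearts biological replicates and give neither the strain of the control animals nor the age, sex or any treatment of either group. The tissue is labelled heart, although the sample descriptions mention a cell line. Failing groups given captopril, alone or with butyrate, are named in the labels, but none of the 12 samples is titled as such.

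Microtubules are hollow polymers of paired alpha- and beta-tubulin, and each tubulin is encoded by several genes whose products differ mainly in their acidic tails. In heart muscle cells they carry cargo, and those lacking the last tyrosine of alpha-tubulin couple to the sarcomere and resist shortening. A denser and more detyrosinated network is a known feature of overloaded and failing heart muscle. In whole tissue, fewer cells of a type and less RNA per cell cannot be told apart, and the arrays measured RNA, not polymer or its modifications.

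The arrays had been scaled to nearly equal trimmed means, between 500.19 and 500.23 in intensity. The values are given below as log2 of the deposited linear intensity, and differences as failing minus control. Spearman correlations between arrays ranged from 0.915 to 0.945. Of the 10 member probe sets, 8, covering all 6 genes, averaged no less than the median probe set (6.938 in log2, an intensity of 123) and are called brighter. The other 2, 1 of Map4 and 1 of Tubb6, lay below it. All 9 measured heart muscle marker genes had a brighter probe set, and 14 of their 16 probe sets were brighter. Control replicate 4 stood apart in several members and in its markers of dividing cells. Member differences that moved by over 1.5 times without it are given with that value.

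The largest differences among the members were in Tubb6, 1.99-fold higher in failing hearts, and in Tuba4a, at 0.54-fold of the control level. Both missed the threshold of 0.05 when limma was run on the 15521 brighter probe sets (adjusted p = 0.0538 and 0.0605). In that fit 0 of 8 brighter members were called higher and 0 lower, where 2.76% of all brighter probe sets were called higher and 1.48% lower. At an unadjusted p under 0.05 there were 3 higher and 1 lower of 8, beside 2042 higher and 1859 lower among all brighter probe sets, 25.1% of them. The fit over all 31042 probe sets called 0 members and 0% of all probe sets, with 3 of 10 members at an unadjusted p under 0.05. With 1 probe set a gene, the brightest, limma over 7109 brighter genes called Tubb6 higher (adjusted p = 0.0335) and Tuba4a lower (adjusted p = 0.0385), 2 of the 5 members in that fit, against 10.1% of genes called. In 0 of 10 members were the groups free of overlap, against 1.52% of all probe sets. The median difference of the 8 brighter members was 0.16, beside -0.000221 over all brighter probe sets.

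**Figure D1:**
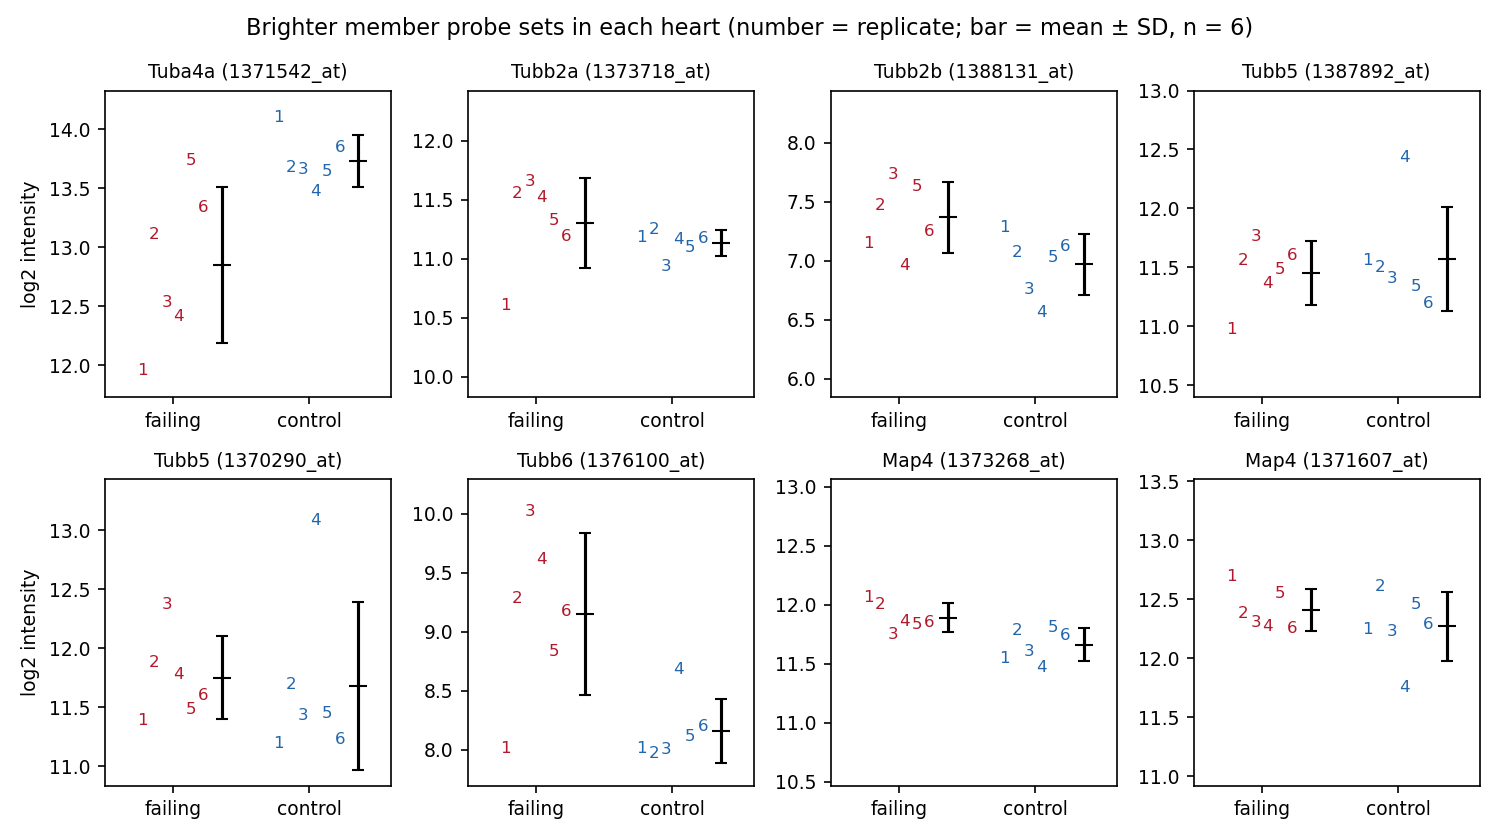
Log2 intensity of the 8 brighter member probe sets in each heart, failing at the left and control at the right of each panel. Numbers are replicates and bars give the mean ± SD of 6 hearts, on axes of equal span. In Tubb6, 5 of 6 failing hearts lie above every control heart, and in Tuba4a, 5 of 6 lie below every control heart.

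Among the alpha-tubulins, Tuba4a encodes an isotype that, in human and mouse, is made without the terminal tyrosine carried by most alpha-tubulins. Its probe set 1371542_at ran from 11.96 through a median of 12.82 to 13.74 in failing hearts, against 13.47, 13.67 and 14.10 in control hearts (lowest, median and highest, log2 intensity). Of 6 failing hearts, 5 lay below every control heart, and failing replicate 5, at 13.74, lay within the control range. The means were 12.85 ± 0.66 in failing and 13.73 ± 0.22 in control hearts (SD, n = 6 each). The difference was -0.89 ± 0.25 (log2 ± SE), with a 95% interval from -1.44 to -0.34 (limma adjusted p = 0.0605). It was -1.07 (adjusted p = 0.0155) without failing replicate 5 and -0.94 (adjusted p = 0.0403) without control replicate 4. In the other 10 fits that left out 1 heart it did not pass (adjusted p up to 0.129), and the smallest difference was -0.71 (adjusted p = 0.0879), without failing replicate 1, the lowest heart. The spread was wider among the failing hearts, where replicates 1, 3 and 4 were the lowest, at 11.96, 12.53 and 12.41. Tuba1a and Tuba1b, which encode the main alpha-tubulins of most tissues and are neighbours on rat chromosome 7 with 0 annotated genes between them, were not measured singly. The probe set they share with Tuba1c, which is attributed to none of the 3, ran from 13.62 to 14.00 in failing hearts and from 13.67 to 14.17 in control hearts. Its difference was 0.032, with an interval from -0.21 to 0.27 (limma adjusted p = 0.892), and 0.097 without control replicate 4.

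Among the beta-tubulins, Tubb6 encodes the class V isotype, whose overproduction in cultured hamster cells is known to break up the microtubule network. Its probe set 1376100_at was at 8.01, 9.28, 10.02, 9.61, 8.83 and 9.17 in failing replicates 1 to 6. In control replicates 1 to 6 it was at 8.01, 7.97, 8.0, 8.68, 8.11 and 8.20. Failing replicate 1 matched the control hearts, while the other failing hearts exceeded all of them. The means were 9.15 ± 0.69 in failing and 8.16 ± 0.27 in control hearts (SD, n = 6 each), an intensity of 622 against 291. The difference was 0.99 ± 0.27, with an interval from 0.41 to 1.57 (limma adjusted p = 0.0538). It was 1.22 (adjusted p = 0.0253) without failing replicate 1 and 1.09 (adjusted p = 0.0251) without control replicate 4, the highest control heart. It passed in 1 more such fit, without failing replicate 5, and in the other 9 it did not (adjusted p up to 0.112), the smallest difference being 0.82 (adjusted p = 0.109) without failing replicate 3, the highest failing heart. A second, dim Tubb6 probe set, 1394144_at, spread from 2.81 to 6.07 in failing and from 2.07 to 5.68 in control hearts and gave a difference of 0.039 with an interval from -1.59 to 1.67 (0.23 without control replicate 4), too wide to set beside the first.

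The promoters of Tuba4a and Tubb6 are shown because these are the members with the largest differences, in opposite directions. They are RefSeq sequences on assembly GRCr8, running 5′ to 3′ from 250 bases before to 50 bases after the annotated start. Tuba4a lies on the minus strand at chr9:84162535-84162834 and Tubb6 on the plus strand at chr18:63213037-63213336. Capitals mark matches, on either strand and with no overlaps, to the letters TATAA (of a TATA box), CCAAT (of a CCAAT box) or GGGCGG (of a GC box).
Tuba4a: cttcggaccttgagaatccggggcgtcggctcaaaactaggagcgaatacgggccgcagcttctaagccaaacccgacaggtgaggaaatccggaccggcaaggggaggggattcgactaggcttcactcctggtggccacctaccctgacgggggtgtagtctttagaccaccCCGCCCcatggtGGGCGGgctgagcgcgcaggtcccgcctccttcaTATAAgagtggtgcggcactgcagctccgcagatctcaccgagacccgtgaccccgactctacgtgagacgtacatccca
Tubb6: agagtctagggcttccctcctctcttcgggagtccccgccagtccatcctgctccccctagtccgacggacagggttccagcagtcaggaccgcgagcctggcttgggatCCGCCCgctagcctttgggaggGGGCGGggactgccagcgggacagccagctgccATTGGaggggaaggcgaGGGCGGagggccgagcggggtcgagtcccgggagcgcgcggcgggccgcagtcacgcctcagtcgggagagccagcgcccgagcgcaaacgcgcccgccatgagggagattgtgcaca
The Tuba4a window held TATAA once, starting 30 bases before the annotated start, GGGCGG in either orientation 2 times, and CCAAT 0 times. The Tubb6 window held no TATAA, 3 matches to GGGCGG and 1 to CCAAT. These windows were 62.0% and 70.7% G and C, beside a median of 51.7% over 33469 promoters in the table. Of all these promoters, 26.2% held TATAA, 37.5% held CCAAT and 33.1% held GGGCGG. A match is a string of letters and not a site shown to be used. Promoters of 7 of the 8 symbols were in the table, Map4 being the other.

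Tubb2a and Tubb2b encode the closely related class II beta-tubulins, abundant in brain, and lie near each other on rat chromosome 17 with 1 gene, Tubb2al1, between them. RefSeq lists Tubb2b as an older name of Tubb2a, so the annotation of these probe sets is uncertain. For Tubb2b, probe set 1388131_at ran from 6.96 through 7.36 to 7.73 in failing hearts, against 6.56, 7.05 and 7.28 in control hearts. The difference was 0.39 ± 0.16 with an interval from 0.054 to 0.74, at levels near the median of all probe sets (limma unadjusted p = 0.0264, adjusted p = 0.144). It lay between 0.31 and 0.48 whichever 1 heart was left out, and 3 of 6 failing hearts exceeded every control heart. For Tubb2a, probe set 1373718_at was at 10.60, 11.55, 11.65, 11.52, 11.32 and 11.19 in failing replicates 1 to 6. The control hearts spanned 10.93 to 11.25 around a median of 11.16. Of the failing hearts, 4 lay above the control range and replicate 1 lay below it, and the difference was 0.17 ± 0.16 (interval -0.17 to 0.51, limma adjusted p = 0.523). It was 0.31 (adjusted p = 0.115) without failing replicate 1 and 0.1 (adjusted p = 0.748) without failing replicate 3.

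Tubb5, which encodes the widely expressed class I beta-tubulin, had 2 bright probe sets. The first, 1370290_at, ran from 11.39 through 11.69 to 12.37 in failing hearts, against 11.19, 11.44 and 13.08 in control hearts. The second, 1387892_at, ran from 10.97 through 11.52 to 11.76 in failing hearts, against 11.19, 11.45 and 12.43 in control hearts. In both, control replicate 4 was the highest of the 12 hearts, and the other hearts of the groups overlapped. The differences were 0.073 ± 0.29 and -0.12 ± 0.20 (limma adjusted p = 0.903 and 0.749), with intervals from -0.54 to 0.69 and from -0.54 to 0.31. Without control replicate 4 they were 0.35 and 0.056 (adjusted p = 0.173 and 0.817). The summed intensity of 6 measured markers of dividing cells was 5064 in that heart, while the next highest heart of the 12 was at 1155. The 2 brighter of these markers, Ccnb1 and Mki67, did not pass between the groups, with 4 markers below the median level. Control replicate 4 also had the highest Stmn1, at 12.60, where the other control hearts spanned 10.19 to 10.62. What part these cells have in the Tubb5 levels was not tested.

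Map4 encodes the main microtubule-stabilising protein of tissues other than nerve, known to be abundant on microtubules of overloaded heart muscle in the cat. It had 3 probe sets. Probe set 1373268_at ran from 11.75 through 11.86 to 12.06 in failing hearts, against 11.47, 11.67 and 11.81 in control hearts. Both groups were narrow, and 5 of 6 failing hearts exceeded every control heart. The difference was 0.24 ± 0.10, a fold of 1.18, with an interval from 0.021 to 0.45 (limma unadjusted p = 0.034, adjusted p = 0.163). The brightest Map4 probe set, 1371607_at, gave 0.14 ± 0.14 (interval -0.16 to 0.45, limma adjusted p = 0.564), ranging from 12.25 to 12.69 in failing and from 11.75 to 12.61 in control hearts. The dim probe set, 1392254_at, gave 0.60 ± 0.57 (limma adjusted p = 0.664 over all probe sets), where control replicate 1 lay at 2.98 and the other 11 hearts between 5.97 and 7.03. Without control replicate 1 the dim probe set gave 0.027, and without control replicate 4 the brightest gave 0.039 (adjusted p = 0.848). The 2 brighter ones had r = 0.739 over the 12 hearts, and 0.588 without control replicate 4.

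**Figure D2:**
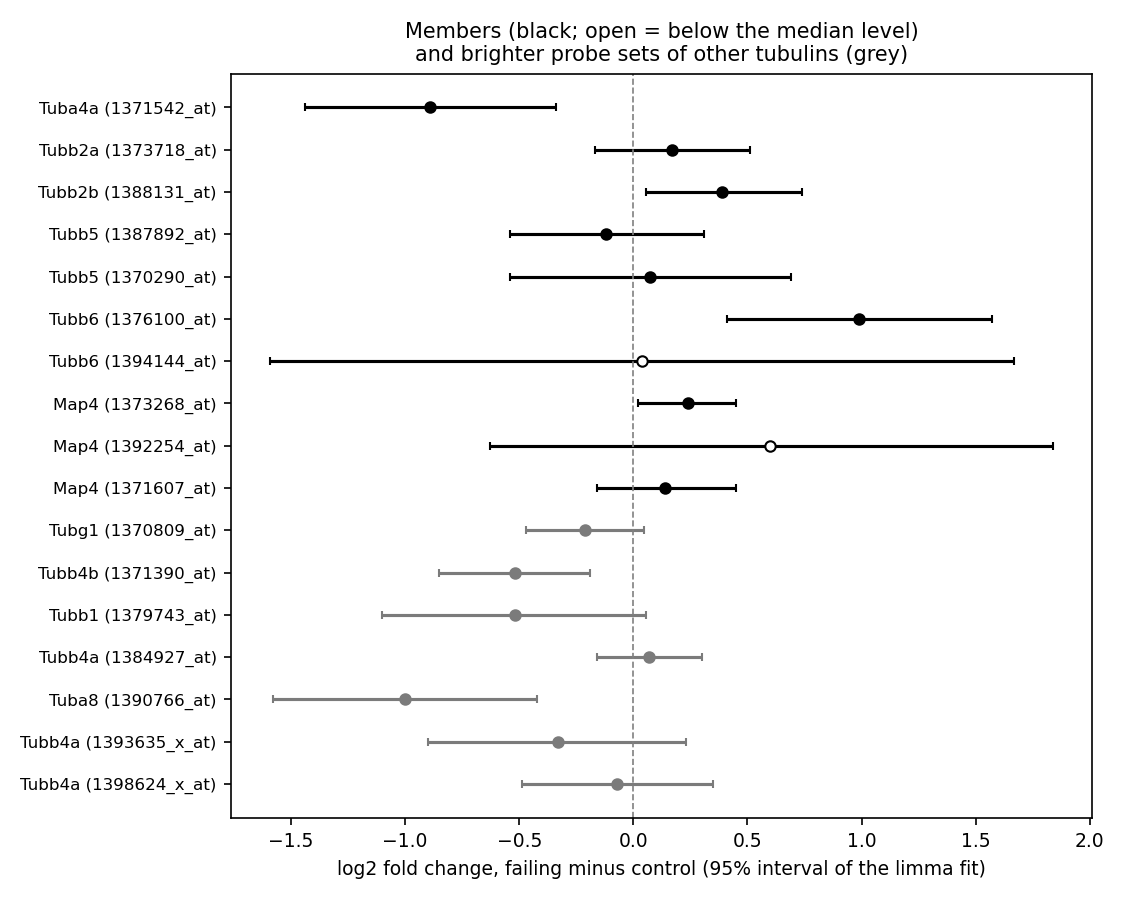
Log2 fold change, failing minus control, with the 95% interval of the limma fit for the 10 member probe sets (black, open where below the median level) and the brighter probe sets of other tubulins (grey). The intervals of Tuba4a, Tubb4b and Tuba8 lie below 0, and those of Tubb6, Tubb2b and 1 Map4 probe set lie above 0.

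The members did not vary as 1 group. Correlations over the 12 hearts are descriptions of points that share arrays and scaling. Tubb6 and Tubb2a went together (r = 0.784 over 12 hearts, and 0.842 on deviations from the group means). The 2 Tubb5 probe sets had r = 0.858, and 0.593 without control replicate 4. With that heart left out, all pairs of brighter beta-tubulin members (Tubb2a, Tubb2b, Tubb5 and Tubb6) had positive r, from 0.494 to 0.82. Over the 12 hearts these pairs ran from -0.21 to 0.858, and both ranges include the differences between the groups. Tuba4a and Tubb6 had r = -0.481 over the 12 hearts and 0.0493 on deviations from the group means, so their opposite course lay between the groups and not among the hearts of a group. Failing replicate 1 had the lowest Tuba4a of all 12 hearts, the lowest Tubb2a and the highest Map4 in both brighter probe sets, while its Tubb6 was at the control level. Tubb5 and Map4 had r from -0.791 to -0.321 over their 4 pairs of brighter probe sets, with control replicate 4 the highest heart in both Tubb5 and the lowest in both Map4 probe sets. Without that heart, left out after these values were seen, the 4 ran from -0.455 to 0.246. By Pearson correlation over the 12 arrays, the 5 genes most like Tubb6 among brighter probe sets were Vps41 (r = 0.947), Slc66a3 (r = 0.941), Ugdh (r = 0.937), Sgpl1 (r = 0.936) and Prelp (r = 0.932).

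**Figure D3:**
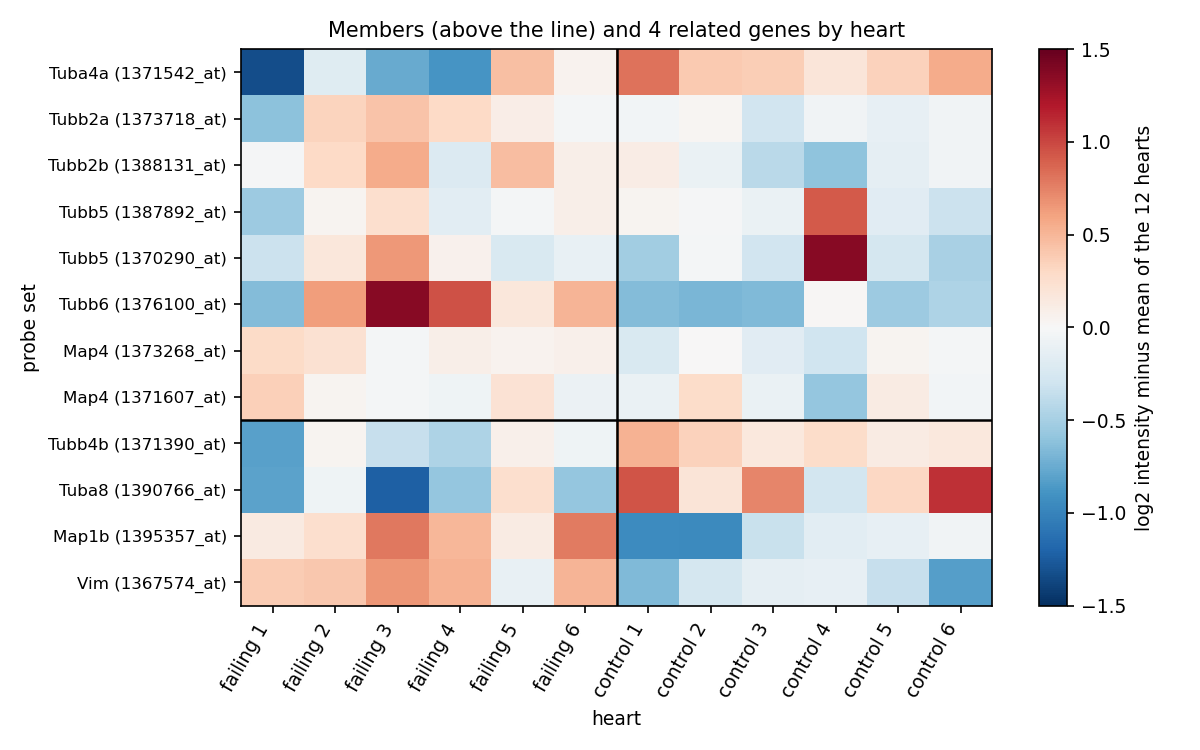
Log2 intensity minus the mean of the 12 hearts for the 8 brighter member probe sets (above the line) and for Tubb4b, Tuba8, Map1b and Vim, with failing hearts left of the vertical line and control hearts right of it. Control replicate 4 is high in both Tubb5 probe sets, and failing replicate 1 is low in Tuba4a and Tubb2a without being high in Tubb6.

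Of the other tubulin genes, 7 of 13 were measured, in 12 probe sets, of which 7 probe sets of 5 genes were brighter. The limma fit called 0 higher and 0 lower, with 0 higher and 2 lower at an unadjusted p under 0.05, and their median difference was -0.33. Tuba8, an alpha-tubulin of striated muscle, testis and brain, ran from 10.45 through 11.09 to 11.93 in failing hearts, against 11.40, 12.19 and 12.77 in control hearts. Its difference was -1.0 ± 0.27 (limma adjusted p = 0.0525, and from 0.0156 to 0.179 over 22 alternatives). Tubb4b, a widely expressed class IV beta-tubulin, was at 12.14, 13.00, 12.62, 12.50, 13.04 and 12.89 in failing replicates 1 to 6, all below the control hearts, which ran from 13.08 through 13.17 to 13.48. Its difference was -0.52 ± 0.15 (limma adjusted p = 0.0636, and from 0.0344 to 0.197 over 22 alternatives). Both followed Tuba4a over the 12 hearts, with r = 0.951 for Tubb4b and r = 0.839 for Tuba8. Within the 6 failing hearts these were 0.948 and 0.736, and within the 6 control hearts 0.605 and 0.807. Probe sequences were not at hand, so binding of a tubulin probe set to RNA of related tubulin genes was not tested. The brighter probe sets of Tubb1, the tubulin of platelets (-0.52 ± 0.27), of Tubg1, the gamma-tubulin of nucleation sites (-0.21 ± 0.12), and the 3 of Tubb4a (from -0.33 to 0.067) had limma adjusted p from 0.243 to 0.855. Without control replicate 4, Tubb1 differed by -0.33 (limma adjusted p = 0.349). Tubb4a probe set 1398624_x_at then moved from -0.071 to -0.15 (limma adjusted p = 0.649). Tubb3, the beta-tubulin of neurons, and Tube1, epsilon-tubulin, lay below the median level in all of their 2 and 3 probe sets, with adjusted p from 0.466 to 0.981 over all probe sets.

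Over 8 lists of other microtubule and filament genes, 152 of 183 genes were measured, in 259 probe sets, 174 of them brighter. Of these 174, 2 (1.15%) were called higher and 0 lower, against 2.76% and 1.48% of all brighter probe sets. At an unadjusted p under 0.05, 21 were higher and 15 lower (20.7%, against 25.1% of all). Microtubule-associated and stabilising proteins had 1 higher and 0 lower of 43 brighter probe sets, with a median difference of 0.051. The call was Map1b, a protein best known from growing nerve fibres, which rose by 0.86 ± 0.19 (limma adjusted p = 0.035). In the limma fit over all probe sets the adjusted p of Map1b was 0.148. Its failing hearts ran from 9.65 through 9.90 to 10.32, against 8.57, 9.28 and 9.47 in control hearts, with no overlap. The call ended without any 1 of 8 hearts (failing replicate 3, 4 or 6 or any control heart but replicate 4, adjusted p up to 0.0875). Of its 3 probe sets, all brighter, all 3 pointed up (0.35 to 0.86) and 1 was called. Among 5 filament partners of microtubules, 1 of 5 brighter probe sets was called higher and 0 lower. It was Vim, vimentin, the intermediate filament protein of mesenchymal cells, which rose by 0.78 ± 0.16 (limma adjusted p = 0.0276). In the limma fit over all probe sets the adjusted p of Vim was 0.129. Its failing hearts lay between 13.86 and 14.63, against 13.14 and 13.85 in control hearts. It lost the call when any 1 of 5 hearts was left out, namely failing replicates 3, 4 and 6 and control replicates 1 and 6 (adjusted p up to 0.069).

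Enzymes that modify tubulin had 0 calls among 20 brighter probe sets (1 higher and 2 lower at an unadjusted p under 0.05, median -0.081). Vash1 and Vash2 encode the carboxypeptidases that, with the partner Svbp, remove the last tyrosine of alpha-tubulin, and Ttl encodes the ligase that restores it. Vash1 differed by -0.11 ± 0.12 and Svbp by -0.15 ± 0.15 (limma adjusted p = 0.596 and 0.555). The 2 brighter Vash2 probe sets gave -0.88 ± 0.30 and -0.55 ± 0.33 (limma adjusted p = 0.0994 and 0.313), and the 2 dim ones -0.53 and 0.78 (limma adjusted p = 0.523 and 0.509 over all probe sets). Of the Ttl probe sets, 1380380_at ran from 6.42 to 7.23 in failing hearts, against 6.94 to 7.65 in control hearts, a difference of -0.51 ± 0.18 (limma adjusted p = 0.101). The brighter Ttl probe set 1390311_at, with hearts between 9.58 and 9.89, gave -0.079 ± 0.090 (limma adjusted p = 0.617), and the dim 1388028_at gave 0.045, so the 3 did not go alike.

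In the remaining lists the limma fit had 0 calls in either direction, and the member with the smallest p is given. Plus-end proteins had 4 higher and 3 lower of 22 brighter probe sets at an unadjusted p under 0.05, led by Clasp2, which anchors growing ends (-0.36 ± 0.10, adjusted p = 0.0564). Destabilising and severing proteins had 0 of 8 at that level, and Stmn1, stathmin, which binds free tubulin, differed by -0.63 ± 0.32 (adjusted p = 0.245), and by -0.27 (adjusted p = 0.141) without control replicate 4. Folding and nucleation genes had 1 higher and 5 lower of 36, led by Tbcel, a tubulin cofactor relative (-0.56 ± 0.17, adjusted p = 0.074). Motor genes had 4 higher and 3 lower of 33, led by Kifap3, an accessory subunit of a kinesin (0.35 ± 0.13, adjusted p = 0.121). With 1 probe set a gene, limma over the brighter genes called 6 of 103 genes of these 8 lists (5.83%, against 10.1% of all genes in that fit), Vim and Clip1, a plus-end linker, higher and Clasp2, Tuba8, Tubb4b and Clasp1 lower.

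Of 8 marker lists besides that of heart muscle, 4 held a probe set called higher (fibroblast, macrophage, endothelial and nerve). Fibroblast markers had 3 higher and 0 lower of 10 brighter probe sets (Postn, Dcn and Pi16), and their summed intensity ranged from 50211 to 99886 in failing hearts and from 42037 to 63365 in control hearts. Macrophage markers had 4 higher and 0 lower of 8 (Mrc1, Lyz2, C1qc and C1qb), with sums from 18555 to 41283 in failing hearts and from 12421 to 19239 in control hearts. Failing replicate 3, the highest heart for Tubb6, was the highest of all 12 in both sums, while failing replicate 1, at the control level for Tubb6, was the lowest failing heart in the fibroblast sum. Failing replicate 1 was nevertheless above every control heart in the macrophage sum, at 23179, and control replicate 4, the highest control heart for Tubb6, had the lowest fibroblast sum, at 42037. Endothelial markers had 1 higher (Vwf) and 0 lower of 5, with sums from 10094 to 15207 (replicate 1) in failing and from 8464 to 10881 in control hearts. Smooth muscle markers had 0 higher and 1 lower (Smtn) of 7, with sums from 26716 to 29876 in failing and from 19045 to 27057 in control hearts. Nerve and Schwann cell markers had 1 higher (Uchl1) and 0 lower of 2 brighter probe sets, with sums from 978 to 1577 in failing and from 672 to 919 in control hearts, and Tubb3, Nefl, S100b and Sox10 below the median level. Heart muscle markers had 0 calls among 14, with sums from 329116 to 490125 in failing and from 314670 to 487023 in control hearts. The control low was control replicate 4, and the other control hearts spanned 439560 to 487023. Failing replicates 2, 3, 4 and 6 lay below that span, at 419023, 329116, 431992 and 346543. Failing replicate 1 lay within it, at 447303, and failing replicate 5 above it. Atrial markers had 0 calls among 5, with sums from 49249 to 66085 in failing and from 38948 to 73030 in control hearts. Lymphocyte markers lay below the median level in 5 of 6 genes, with 0 calls and sums from 300 to 681 in failing and from 352 to 630 in control hearts. The part of these cells in the Tubb6, Map1b and Vim levels, or in those of Tuba4a, was not tested.

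**Figure D4:**
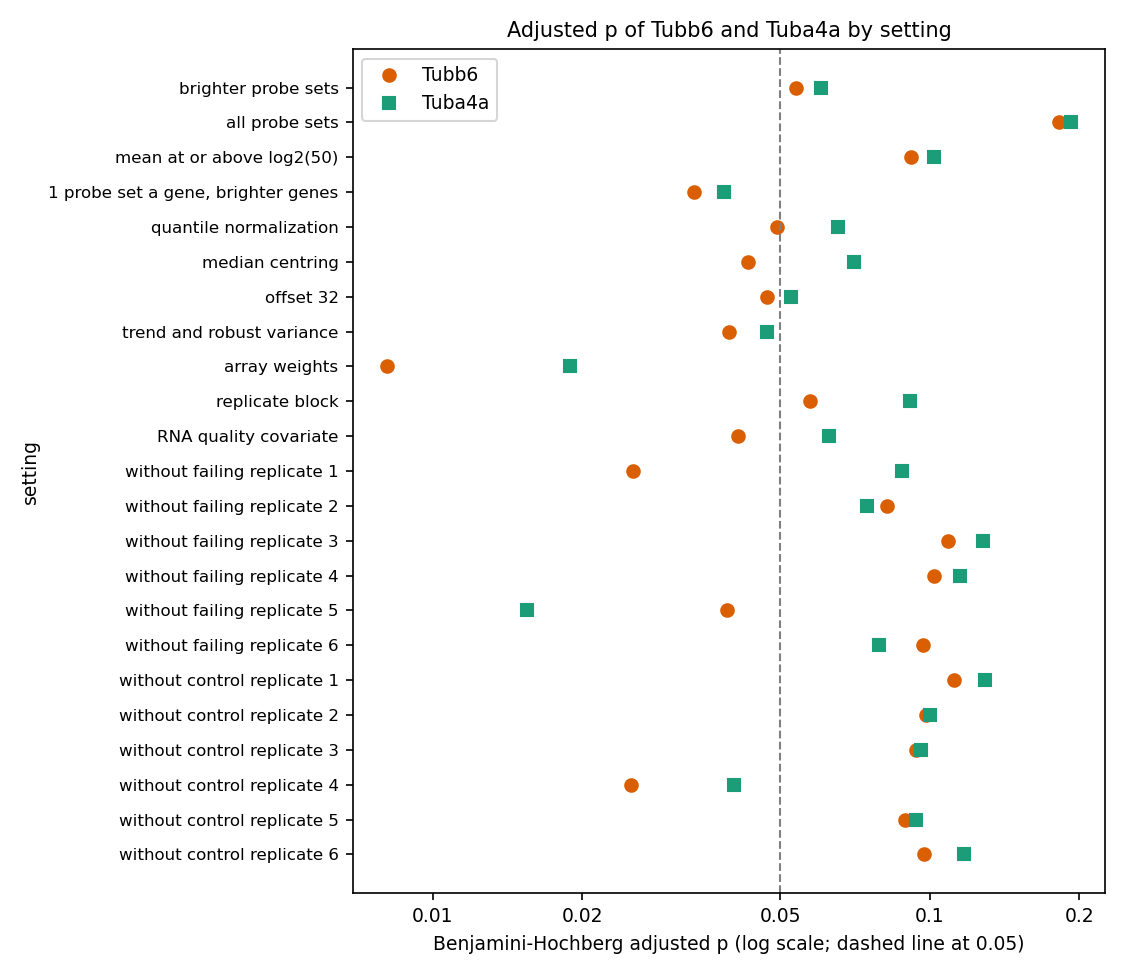
Benjamini-Hochberg adjusted p (log axis, dashed line at 0.05) of Tubb6 (circles) and Tuba4a (squares) in the limma fit over brighter probe sets and under each alternative. Tubb6 passed in 10 and Tuba4a in 5 of 22 alternatives.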

How the data were processed

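Heart RNA was measured on 12 1-colour oligonucleotide arrays. The authors deposited 1 table of linear intensity values for 31099 probe sets, with values of 0.1 up to 79913.6, every column of which is a sample of the series. Per the submitters' processing notes RMA was used (no version), but RMA output is usually log2, so the summary method is unsettled. The scaling would hide a shift of most genes in 1 direction.

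Groups and replicate numbers came from the titles. Intensities were put on log2 with no offset, 57 control probe sets were left out, and failing hearts were set against control hearts with lmFit and eBayes of limma 3.58.1 (R 4.3.3) over the 15521 brighter probe sets and over all 31042, with Benjamini-Hochberg adjustment, a threshold of 0.05 and two-sided tests. The median residual SD was 0.28 (log2) among brighter and 1.08 among dimmer probe sets; having 6 arrays a group bounds the precision. Names came from the platform annotation. The fit was also run on simulated data, drawn as independent normal values with equal SD in both groups and no outlying heart. It therefore does not cover the unequal spread of Tuba4a and Tubb6 or a heart like control replicate 4.

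The members, lists and tests were chosen with earlier results of these data known. The filter on brightness was chosen knowing that those results gave no call over all probe sets. Every member probe set is reported. Of each list, called probe sets or the smallest p are named, with all other tubulins, Ttl, Vash1, Vash2 and Svbp in any case. Likeness was ranked by Pearson correlation over 12 arrays for the member with the smallest p. Alternatives changed the filter, the unit (1 probe set a gene), normalization, offset, variance model, array weights, replicate term, an RNA quality covariate, the threshold, and left out each heart. Figures used matplotlib 3.10.9.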

Additional observations from a re-analysis of the deposited data

Results flagged for a closer look

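Within groups of 6 hearts, 8 of 76 groups tested for the reported probe sets held 1 heart far from the others by Dixon's criterion (the gap to the nearest heart over the range of the group). Chance flags about 1 in 20 groups, or 3.8 here, and 4 of the 8 were control replicate 4. That heart was at 13.08 and 12.43 in the 2 Tubb5 probe sets, where the other control hearts spanned 11.19 to 11.69 and 11.19 to 11.56. It was at 8.68 in Tubb6 (others 7.97 to 8.20) and at 12.60 in Stmn1 (others 10.19 to 10.62). Control replicate 1 was at 2.98 in the dim Map4 probe set, the others lying between 5.97 and 7.03. Failing replicate 3 was at 3.45 in a dim Tube1 probe set (others 4.82 to 5.32), failing replicate 4 at 7.31 in a Tubb4a probe set (others 8.0 to 8.32), and failing replicate 5 at 13.86 in Vim (others 14.35 to 14.63).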

How the results depend on the processing

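Among brighter members, 0 were called higher and 0 lower. Tubb6 was the 1 member called higher with 1 probe set a gene, quantile normalization, median centring, an offset of 32, a variance trend, array weights or the RNA quality covariate, and Tuba4a the 1 called lower with 1 probe set a gene, a variance trend or array weights. Leaving out each heart gave 0 to 1 higher (Tubb6, without failing replicate 1 or 5 or control replicate 4) and 0 to 1 lower (Tuba4a, without failing replicate 5 or control replicate 4). Over those 12 fits the adjusted p ran from 0.0251 to 0.112 for Tubb6 and from 0.0155 to 0.129 for Tuba4a, and over the other 10 from 0.0081 to 0.182 and from 0.0189 to 0.192. Both kept their direction in all of these fits. The cause of these changes was not tested. The fit with 1 probe set a gene differed in both its number of features and its brightness cutoff (8.21 in log2, against 6.938).

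Of the other microtubule genes, 2 were called higher and 0 lower. The number higher was 0 over all probe sets, with a mean of at least log2(50), or at a threshold of 0.01, then 7 with array weights and 6 with the RNA quality covariate. The number lower was 4 with 1 probe set a gene, 1 with the offset, 3 with the variance trend and 9 with array weights. Leaving out each heart gave 0 to 5 higher and 0 to 9 lower, the most lower without control replicate 4.

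Over all brighter probe sets the 429 higher and 230 lower calls became 40 and 14 of 20496 at a mean of at least log2(50), 395 and 136 with median centring, 1203 and 1067 with array weights, 1035 and 1048 without control replicate 4, and 20 and 4 without control replicate 6. The calls were thus 65.1% higher in the main fit and 74.4% with median centring.

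Signs turned for differences near 0. Tubb5 1387892_at became 0.035 with array weights and ran from -0.19 to 0.056 without each heart, and Tubb5 1370290_at ran from -0.051 to 0.35. The dim Tubb6 probe set became -0.030 with the offset and ran from -0.43 to 0.36 without each heart. The shared alpha-tubulin probe set ran from -0.0037 to 0.1.

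Hearts of the 2 groups share replicate numbers only: deviations of same-numbered hearts had r from -0.0602 to 0.232, and 2 of 6 failing hearts correlated best with their own number. With the replicate block 0 members were called in either direction and 3 other microtubule probe sets were called higher, and over all brighter probe sets the calls were 222 higher and 59 lower.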

Other observations

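The genes most like Tuba4a over the 12 hearts, ranked after its values were seen, were Tubb4b (r = 0.951), Hacd1 (r = 0.948), a fatty acid elongation enzyme of muscle, Alas1 (r = 0.944), the first enzyme of haem synthesis, Bcs1l (r = 0.944), an assembly factor of respiratory complex III, and Nmrk2 (r = 0.927), a muscle kinase of NAD synthesis. Of these, limma called Bcs1l and Nmrk2 lower over the brighter probe sets (-0.80 and -1.80, adjusted p = 0.042 and 0.0493), and Tubb4b, Hacd1 and Alas1 did not pass (adjusted p = 0.0636, 0.0609 and 0.0803). The correlations share arrays and scaling and carry no test.

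A further 2 probe sets are annotated to Tubb4b together with the complement gene C7 and were attributed to neither. They differed by 0.89 ± 0.28 and 0.59 ± 0.22 (limma adjusted p = 0.0792 and 0.123), opposite in sign to the probe set of Tubb4b alone (-0.52). In each of them 4 of 6 failing hearts exceeded every control heart.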
